A study of Rattus norvegicus with 42 samples.

Results

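Foxp1, Foxp2, Foxp4, Meis1, Meis2, Meis3 and Pbx3 are genes of 3 related sets of transcription factors, and their levels were followed in the hippocampus of rat pups given an anti-seizure medication. They were taken by symbol from the deposited count table, in which they are 7 of 14304 gene symbols, and the set was chosen by measured values, since Foxp2 and Meis2 had stood out as higher after phenobarbital in an earlier look at the same counts. Each gene is listed with 1 RefSeq transcript, and all 7 transcripts passed the filter on low counts. The difference between phenobarbital and vehicle is therefore given for the members as a description, without a test. Foxp2 and Meis2 are also given without a test between levetiracetam and vehicle and between the drugs, since those comparisons share the vehicle or phenobarbital animals. Tests of the code form, of its interaction with treatment and of relations across animals are given for all members.

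The study asked what a single early exposure to phenobarbital or levetiracetam does to the hippocampal transcriptome. Wild-type male Sprague Dawley pups received 1 intraperitoneal injection on postnatal day 7 of saline vehicle (VEH), phenobarbital (PB, 75 mg/kg), a barbiturate that enhances GABA-A receptor currents, or levetiracetam (LEV, 200 mg/kg), which binds the synaptic vesicle protein SV2A. Hippocampi were dissected 72 h later, and 1 library per animal was sequenced from 13 VEH, 14 PB and 14 LEV animals, after a VEH animal labelled as excluded was left out. According to the methods, each treatment group held a single animal per litter and treatments were balanced within litter. Animals of different groups can therefore be littermates. The pups also came in separate orders. The labels assign neither litters nor orders to animals, and litter was not modelled. The sample codes have 2 forms, one for animals 1 to 6 and one for animals 7 to 14 of every group. The form was used as the batch, and the first form covers 6 animals per group and the second 7 VEH, 8 PB and 8 LEV animals.

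FOXP proteins are forkhead factors that bind DNA as pairs, mostly as repressors, and are best known from the role of FOXP2 in speech and of FOXP1 in intellectual disability and autism. MEIS and PBX proteins are homeodomain factors of the TALE class, named for an additional loop of amino acids in the homeodomain. They bind DNA together, often with HOX proteins, and in the forebrain Meis2 marks the striatal and olfactory bulb lineages of the ganglionic eminences. In the adult brain Foxp2 is prominent in striatum, thalamus and deep cortical layers, and Foxp1 in the striatum, the cortex and the pyramidal cells of hippocampal area CA1.

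Totals per animal ranged from 9499492 to 14488134 estimated counts, and the group medians were 11712468 (VEH), 11103898 (PB) and 11338329 (LEV). Levels are given as CPM, counts per 1000000 of the TMM-normalized library size. Transcript lengths are not used here, so that levels were compared between animals and not between genes. Transcripts were called differentially expressed when the adjusted p was under 0.05 and the level was at least 25% higher or 20% lower. Foxp4 and Meis2 were well covered, with 352 to 640 and 325 to 837 counts per animal. Foxp1 had 220 to 451 counts, Meis3 184 to 374 and Pbx3 85 to 260. Foxp2 with 14 to 90 counts and Meis1 with 17 to 57 counts were the thinly covered members and had the largest standard errors. In bulk tissue, fewer cells that express a gene and less RNA per cell cannot be told apart.

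Among the FOXP genes, Foxp2 had the largest difference between PB and VEH. The rn6 annotation places its transcript on chr4:41364441-41942024. Foxp2 lay between 1.32 and 5.74 CPM in VEH animals with a median of 4.31, between 3.31 and 8.18 CPM in PB animals with a median of 5.41, and between 2.66 and 8.41 CPM in LEV animals with a median of 5.22. The groups overlapped, but 5 of 14 PB animals and 4 of 14 LEV animals were above the highest VEH animal, and VEH animal 13 was the lowest of all. The mean was 3.93 ± 1.28 CPM for VEH (SD, n = 13), 5.75 ± 1.41 CPM for PB (n = 14) and 5.21 ± 1.76 CPM for LEV (n = 14). The fitted log2 difference between PB and VEH was 0.55 (SE 0.17, a fold of 1.47), and 13 of 14 PB animals were above the mean of the VEH animals with the same form of code. Without VEH animal 13 the log2 difference was 0.47. LEV and VEH differed by 0.40 on the log2 scale (SE 0.18, a fold of 1.32), with 10 of 14 LEV animals above the VEH mean of their form. PB and LEV differed by 0.15 (SE 0.17), less than the standard error of that difference.

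Foxp1, the partner of Foxp2 that is itself expressed in hippocampal neurons, showed a smaller difference in the same direction after PB. Its transcript lies on chr4:131366885-131598305. Foxp1 ranged from 21.3 to 34.4 CPM in VEH animals (median 27.8), from 25.2 to 38.3 CPM in PB animals (median 30.8) and from 24.1 to 32.0 CPM in LEV animals (median 28.1). The ranges overlapped widely, and 3 PB animals were above every VEH animal. The log2 difference between PB and VEH was 0.17 (SE 0.06, a fold of 1.12), with 12 of 14 PB animals above the VEH mean of their form. Between LEV and VEH the log2 difference was 0.03 (SE 0.06, adjusted p = 0.989, edgeR quasi-likelihood test, Benjamini-Hochberg adjustment), and its 95% interval ran from -0.09 to 0.15. PB was above LEV by 0.14 on the log2 scale (SE 0.06), with 11 of 14 PB animals above the LEV mean of their form, which did not pass after adjustment (edgeR, adjusted p = 0.178).

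Foxp4, which pairs with the other FOXP proteins, differed little from VEH with both code forms together, by 0.03 after PB and 0.07 after LEV on the log2 scale. Its transcript lies on chr9:15068399-15124963. Foxp4 ranged from 36.7 to 47.9 CPM in VEH animals (median 43.0), from 34.6 to 54.4 CPM in PB animals (median 43.5) and from 36.3 to 55.2 CPM in LEV animals (median 44.2). The highest animals were PB and LEV animals of the first code form, and 6 LEV animals were above the highest VEH animal. The standard error was 0.05 for both differences, and that between LEV and VEH did not pass the test (edgeR adjusted p = 0.909, 95% interval -0.02 to 0.17). Between PB and LEV it was -0.05 (SE 0.05, edgeR adjusted p = 0.627).

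**Figure D1:**
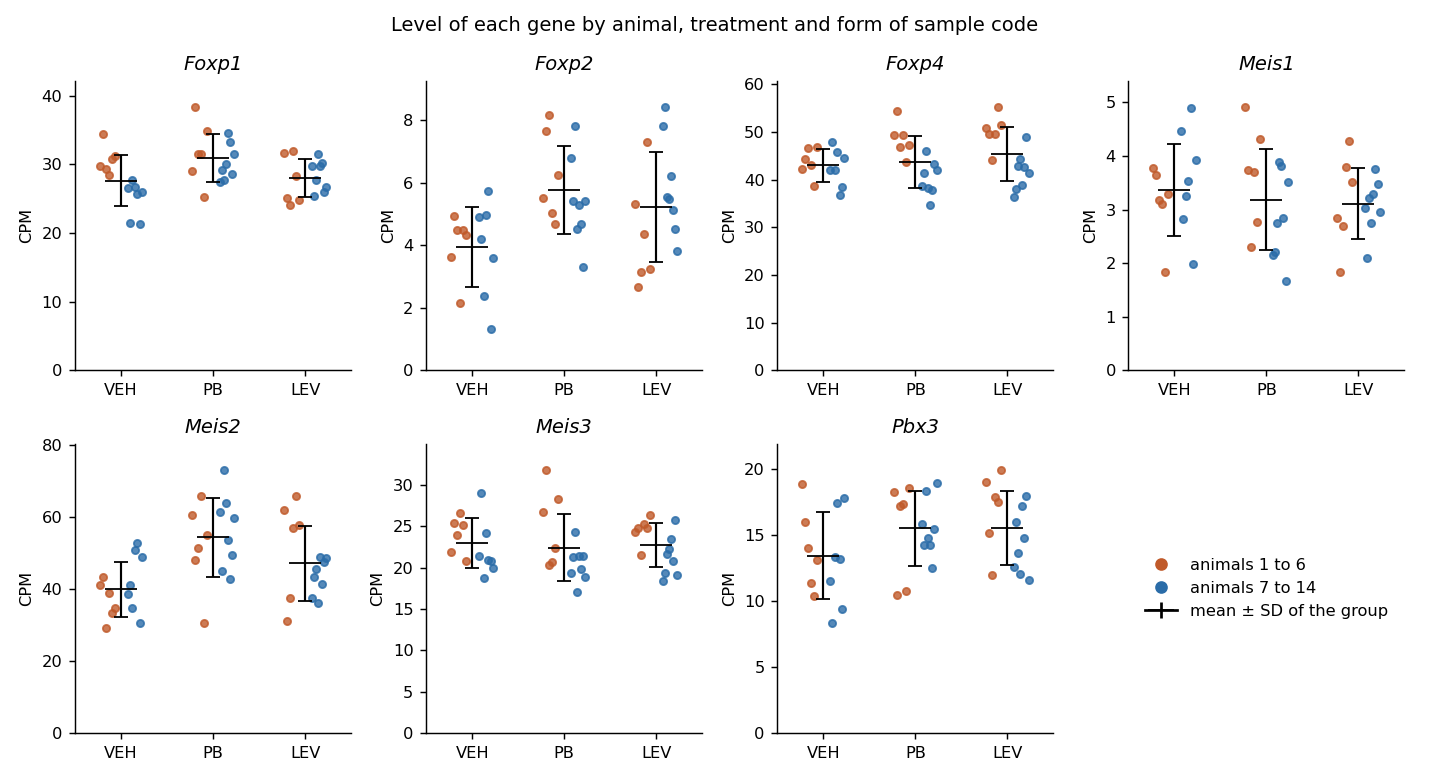
Level of each gene in CPM (vertical axis, from 0, a different scale in each panel) for every animal of the VEH, PB and LEV groups (horizontal axis), coloured by the form of sample code, with the mean ± SD of each group. For Meis2, 8 of the 14 PB animals lie above the highest VEH animal at 52.9 CPM. The ranges of the Meis1 and Meis3 groups overlap widely.

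Of the MEIS genes, Meis2 was higher in PB than in VEH animals, and Meis1 and Meis3 had values close to those of VEH. The Meis2 transcript lies on chr3:107560197-107760590. Meis2 ranged from 29.3 to 52.9 CPM in VEH animals (median 39.0), from 30.6 to 73.1 CPM in PB animals (median 54.3) and from 31.2 to 65.8 CPM in LEV animals (median 46.6). The highest VEH animal was exceeded by 8 of 14 PB animals and by 4 of 14 LEV animals, while PB animal 5 and LEV animal 2 lay among the lowest VEH animals. The mean was 39.9 ± 7.55 CPM for VEH, 54.4 ± 10.9 CPM for PB and 47.1 ± 10.4 CPM for LEV. The log2 difference between PB and VEH was 0.45 (SE 0.11, a fold of 1.36), with 13 of 14 PB animals above the VEH mean of their form. The values after LEV lay between those of the other groups, 0.24 above VEH (SE 0.11) and 0.21 below PB (SE 0.11) on the log2 scale.

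Meis1, known for its role in blood-forming stem cells and limb and heart development, was a sparse transcript here, on chr14:103182178-103321130. Meis1 ranged from 1.84 to 4.90 CPM in VEH animals (median 3.29) and from 1.66 to 4.91 CPM in PB animals (median 3.17). In LEV animals it ranged from 1.83 to 4.29 CPM (median 3.12), and the 3 groups overlapped widely. The log2 difference was -0.07 (SE 0.15) between PB and VEH. Between LEV and VEH it was -0.11 (SE 0.15, edgeR adjusted p = 0.965), with a wide 95% interval of -0.40 to 0.18. Between PB and LEV it was 0.04 (SE 0.15, edgeR adjusted p = 0.918).

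Meis3, a MEIS gene studied mainly in hindbrain patterning, had tighter values. Its transcript lies on chr1:78068931-78079690. Meis3 ranged from 18.7 to 29.0 CPM in VEH animals (median 21.8), from 17.0 to 31.8 CPM in PB animals (median 21.3) and from 18.4 to 26.3 CPM in LEV animals (median 22.9). The log2 difference was -0.03 (SE 0.07) between PB and VEH, -0.01 (SE 0.07, edgeR adjusted p = 0.990) between LEV and VEH, and -0.02 (SE 0.07, edgeR adjusted p = 0.896) between PB and LEV. The 95% interval between LEV and VEH was -0.14 to 0.12, which lies inside the fold limit on both sides.

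Pbx3, the PBX partner among the members, was on the higher side in both drug groups by the same amount. Its transcript lies on chr3:13241477-13436023. Pbx3 ranged from 8.30 to 18.9 CPM in VEH animals (median 13.1), from 10.5 to 18.9 CPM in PB animals (median 15.6) and from 11.6 to 19.9 CPM in LEV animals (median 15.5). The upper ends of the groups lay close together and the 3 lowest animals were VEH animals. The log2 difference was 0.21 (SE 0.11) between PB and VEH, with 11 of 14 PB animals above the VEH mean of their form. Between LEV and VEH it was also 0.21 (SE 0.11), with 10 of 14 LEV animals above that mean, and did not pass the test (edgeR adjusted p = 0.844). PB and LEV differed by 0.00 (SE 0.11, edgeR adjusted p = 0.995), with a 95% interval of -0.21 to 0.21.

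Set side by side, 5 of the 7 members were higher and 2 lower in PB than in VEH animals, with a median log2 difference of 0.17 over the members and of 0.00 over all 13062 tested transcripts. In this fit 1 member, Meis2, passed both limits between PB and VEH, where 0.605% of all tested transcripts passed in either direction. Foxp2 was the member just outside: it passed the fold limit and missed the limit on the adjusted p. This contrast chose the members, so nothing is read from that count. Between LEV and VEH 0 of the 7 members passed, as did 0 of all tested transcripts (0%), although 763 of those had an unadjusted p under 0.05 in edgeR and 5 passed with DESeq2. The median of the members between LEV and VEH was 0.07, beside 0.00 for all transcripts. Between PB and LEV 0 members passed, where 0.582% of all transcripts did, and the median was 0.04. The comparisons of the 2 drugs with VEH share the same 13 control animals, and both PB comparisons share the PB animals.

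**Figure D2:**
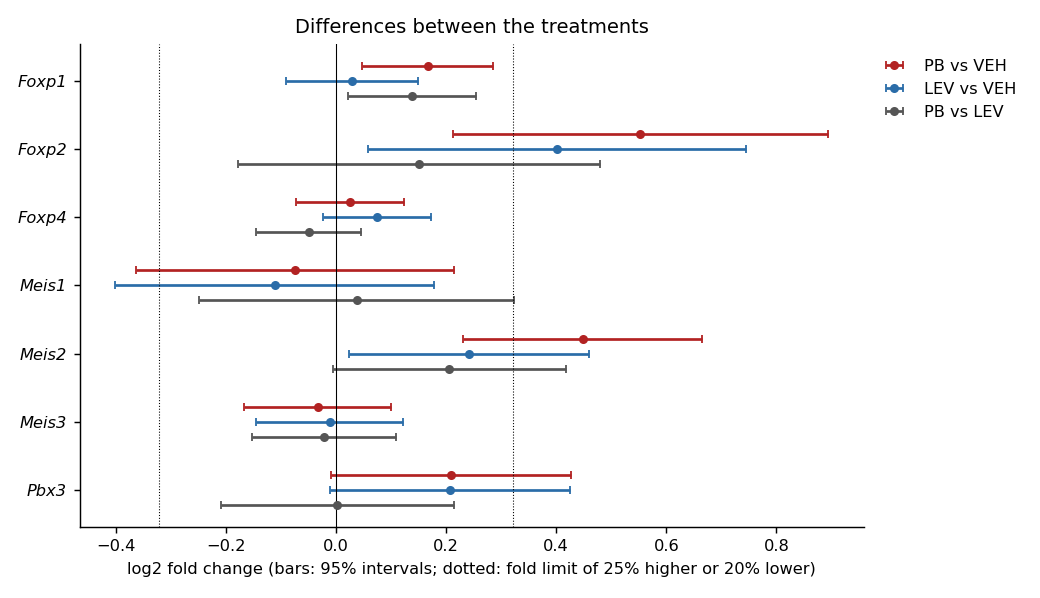
Fitted log2 fold changes (horizontal axis, points with bars for the 95% intervals) of the 7 genes for PB against VEH, LEV against VEH and PB against LEV, with dotted lines at the fold limit of 25% higher or 20% lower. Foxp2 and Meis2 lie farthest to the right after PB (0.55 and 0.45), and Foxp4 has the narrowest intervals, all 3 of which cover 0.

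The members were also compared between the forms of sample code, a comparison the choice of genes did not use. With the treatment held, Foxp4 was lower in animals 7 to 14 than in animals 1 to 6 by 0.19 on the log2 scale (SE 0.04, edgeR adjusted p = 0.000262), and Meis3 was lower by 0.20 (SE 0.06, edgeR adjusted p = 0.00399). The 18 animals of the first form had a median of 47.1 CPM for Foxp4 and of 24.8 CPM for Meis3, and the 23 animals of the second form had 41.9 and 21.0 CPM. Both falls were under the fold limit, so that 0 members passed both limits, where 4.12% of all transcripts did. An adjusted p under 0.05 alone was reached by 2 of the 7 members and by 30.2% of all transcripts, and the members' share is near that background. Foxp1 was lower by 0.10 in the second form (SE 0.05, edgeR adjusted p = 0.115). Foxp2 with 0.06 (SE 0.14, edgeR adjusted p = 0.783) and Meis2 with 0.02 (SE 0.09, edgeR adjusted p = 0.904) were close to even between the forms. Meis1 and Pbx3 were lower in the second form by 0.07 and 0.11, with standard errors of 0.12 and 0.09.

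Within each form, Foxp2 and Meis2 were both higher in PB than in VEH animals. For Foxp2 the log2 difference was 0.64 (SE 0.25) among animals 1 to 6 and 0.49 (SE 0.23) among animals 7 to 14. For Meis2 it was 0.50 (SE 0.16) and 0.40 (SE 0.14). The difference between the forms was -0.15 (SE 0.34, edgeR adjusted p = 0.916) for Foxp2 and -0.10 (SE 0.21, edgeR adjusted p = 0.915) for Meis2, so that no dependence of the PB difference on the form was detectable, although the interval for Foxp2 was wide, from -0.82 to 0.51. None of the 7 members passed this test, which 0.0689% of all transcripts passed. Foxp4 was higher by 0.15 (SE 0.07) after PB in the first form and lower by 0.08 (SE 0.06) in the second, a difference of -0.23 (SE 0.09, edgeR adjusted p = 0.334). Meis1 likewise lay on opposite sides, 0.21 (SE 0.22) above VEH in the first form and 0.31 (SE 0.20) below it in the second, and so did Meis3 at 0.06 (SE 0.10) above and 0.12 (SE 0.09) below. For Foxp1 the difference was 0.05 (SE 0.08) in the first form and 0.27 (SE 0.08) in the second (edgeR adjusted p = 0.470 for the difference). Pbx3 was higher in both, by 0.15 (SE 0.17) and 0.25 (SE 0.15).

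**Figure D3:**
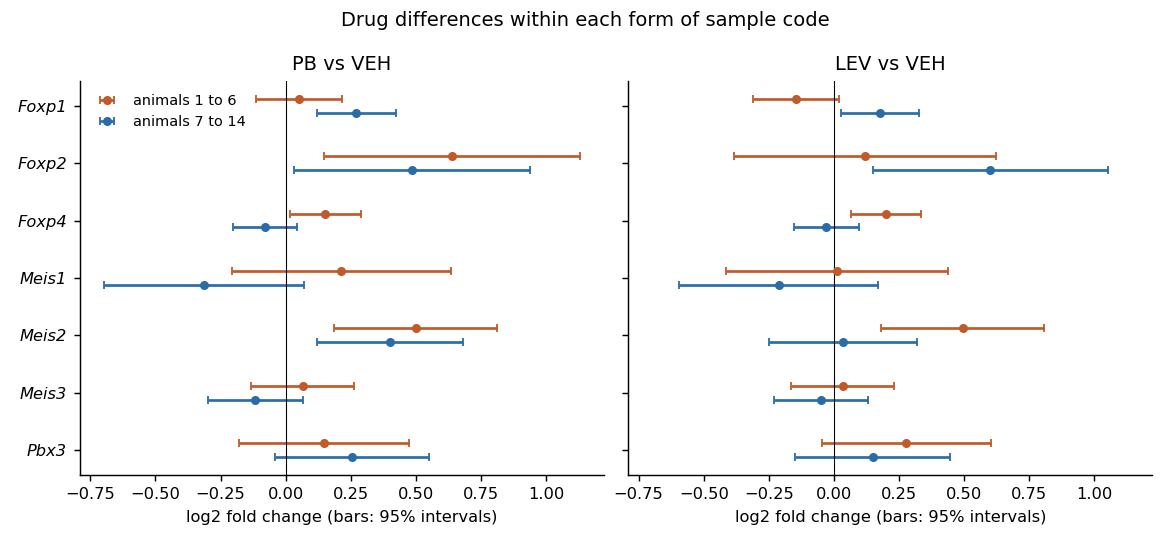
Fitted log2 fold changes (horizontal axis, bars for the 95% intervals) of the 7 genes in animals 1 to 6 and in animals 7 to 14, for PB against VEH (left) and LEV against VEH (right). After PB the Foxp2 and Meis2 points of both forms lie to the right of 0, and after LEV the Meis2 point lies at 0.50 in one form and at 0.03 in the other.

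After LEV, Meis2 was above VEH by 0.50 (SE 0.16) in animals 1 to 6, where its median was 57.4 CPM in LEV and 36.8 CPM in VEH animals. In animals 7 to 14 the LEV animals stood 0.03 above VEH (SE 0.14), with medians of 44.4 and 41.2 CPM. Foxp2 showed the opposite order, with 0.12 (SE 0.26) in the first form and 0.60 (SE 0.23) in the second. Foxp1 was below VEH by 0.15 (SE 0.08) in the first form and above it by 0.18 (SE 0.08) in the second. The differences between the forms were -0.46 for Meis2 (SE 0.22, edgeR adjusted p = 0.354), 0.48 for Foxp2 (SE 0.34, edgeR adjusted p = 0.595), 0.32 for Foxp1 (SE 0.11, edgeR adjusted p = 0.179) and -0.23 for Foxp4 (SE 0.09, edgeR adjusted p = 0.274). None of the 7 members passed after adjustment, where 0.842% of all transcripts did, while 3 of them had an unadjusted p under 0.05, as did 12.8% of all transcripts.

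Beyond the treatments, some members varied together from animal to animal. For this the means of treatment and of code form were removed from the log2 CPM as separate terms. Differences between the forms within a treatment therefore remained, also in the permutations. All 21 pairs of members were compared over the 41 animals, with 100000 permutations of the animals within treatment and form and adjustment over the 21 pairs. Of these, 3 pairs passed. Meis2 and Pbx3 had the closest relation, with Pearson's r of 0.634 (permutation p = 7e-05, adjusted p = 0.00147) and Spearman's rho of 0.699 (permutation p = 1e-05, the smallest that these permutations can give, adjusted p = 0.00021). Without the animals farthest out in Meis2, PB animal 5 and LEV animal 2, r was 0.604, and it was 0.667 in the first form and 0.604 in the second. Meis1 and Meis2 had an r of 0.509 (permutation p = 0.00083, adjusted p = 0.007) and a rho of 0.507 (permutation p = 0.00122, adjusted p = 0.0128). It was 0.519 without VEH animal 5 and PB animal 13, 0.588 in the first form and 0.429 in the second. Foxp4 and Meis3, the pair that was lower in the second code form, had an r of 0.517 (permutation p = 0.001, adjusted p = 0.007) and a rho of 0.434 (permutation p = 0.00456, adjusted p = 0.0319). It was 0.605 without VEH animal 5 and PB animal 11, 0.379 in the first form and 0.613 in the second. The permutations compare each pair with no relation, not with other transcript pairs. Among all tested transcripts, the 99th percentile of r was 0.595 for Meis2, 0.496 for Pbx3 and 0.405 for Meis1. It was 0.531 for Foxp4 and 0.485 for Meis3. Meis2 with Pbx3 lay above the percentiles of both genes. Meis1 with Meis2 and Foxp4 with Meis3 each lay between the percentiles of their 2 genes. All animals share the normalization of their library, and its part in these relations was not tested.

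**Figure D4:**
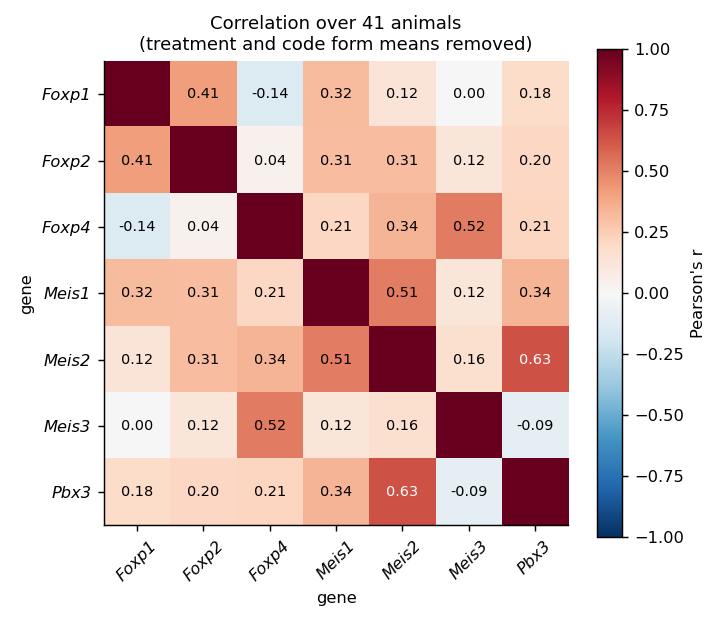
Pearson's r over 41 animals for each pair of the 7 genes (both axes), after the means of treatment and code form were removed from log2 CPM, with colour from -1 to 1. The highest value is that of Meis2 and Pbx3 (0.634), followed by Foxp4 with Meis3 and Meis1 with Meis2.

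Foxp2 and Meis2, the pair that stood out after PB, had a relation across animals that did not pass. Their r was 0.309 (permutation p = 0.0942, adjusted p = 0.22) and their rho 0.238 (permutation p = 0.184, adjusted p = 0.429). Without VEH animal 13 and LEV animal 2, r was 0.158, and it was 0.249 in the first form and 0.386 in the second. The relation thus rested in part on those animals. The LEV differences between the forms ran in opposite directions, 0.48 for Foxp2 and -0.46 for Meis2, and remained in the values compared. A relation with those differences also removed was not computed, so how closely the genes go together within each treatment and form is not given. Foxp1 and Foxp2 had an r of 0.415 (permutation p = 0.0149, adjusted p = 0.0782) and a rho of 0.259 (permutation p = 0.107, adjusted p = 0.281), which did not pass either. It was 0.293 without PB animal 5 and VEH animal 13, 0.635 in the first form and 0.232 in the second.

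**Figure D5:**
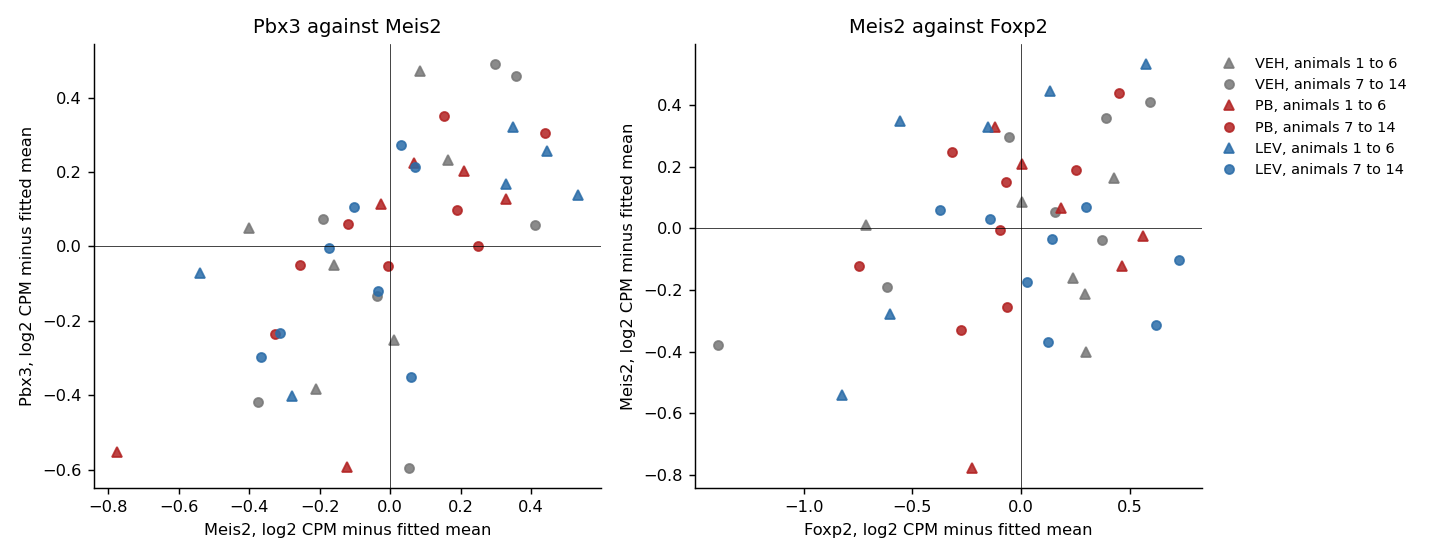
Log2 CPM minus the fitted mean of treatment and code form in each of 41 animals, for Pbx3 against Meis2 (left, r = 0.634) and Meis2 against Foxp2 (right, r = 0.309), with colours for the treatments and shapes for the code forms. Low Meis2 goes with low Pbx3 in animals of all 3 treatments, whereas VEH animal 13 stands alone at low Foxp2.

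The transcripts most like each member over the animals were listed by the same residual r among all tested transcripts, as a description without a test. For Meis2 these were Tenm3 (r = 0.849), a teneurin that guides hippocampal wiring, Ntsr1 (0.844), a neurotensin receptor, Hs6st2 (0.828), a heparan sulfate sulfotransferase, and Prkar2b (0.814), a regulatory subunit of protein kinase A. All 4 stood on the higher side in PB against VEH, with log2 differences of 0.16 to 0.40, and none of them passed the limits (edgeR adjusted p from 0.0962 for Tenm3 to 0.218 for Prkar2b). For Foxp2 the nearest transcripts were looser, namely Frmd3 (0.623), Tm6sf1 (0.621), Cxxc4 (0.615), an inhibitor of Wnt signalling, Smoc2 (0.598), a matricellular protein, and Cttnbp2nl (0.598). Of these Smoc2 rose after PB, by 0.94 on the log2 scale (SE 0.23, edgeR adjusted p = 0.0118). With Spearman's rho in place of r, 1 of the 5 nearest to Foxp2 stayed among its first 5.

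For Pbx3 the nearest transcripts were Calb2 (r = 0.813), which encodes the calcium-binding protein calretinin, Acvr2a (0.729), an activin receptor, and Sstr1 (0.724), a somatostatin receptor. Calb2 was higher in PB than in VEH animals by 0.32 on the log2 scale (SE 0.10, edgeR adjusted p = 0.0432), just under the fold limit. Foxp1 was nearest to Elavl3 (0.748), a neuronal RNA-binding protein, Pcdh17 (0.747), a protocadherin, and Hcn4 (0.725), a pacemaker channel. The nearest to Foxp4 were Shd (0.730), Tmem132a (0.720) and Pdxp (0.708), and Pdxp was lower after PB by 0.14 (SE 0.04, edgeR adjusted p = 0.0347), also under the fold limit. Meis1 was nearest to Fbxl19 (0.617), Cntn3 (0.615) and Niban3 (0.585), and Meis3 to Prcc (0.705), Pcbp4 (0.660) and Marchf9 (0.639).

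Other genes of the same pathways gave 0 calls. Between PB and VEH 0.605% of all tested transcripts passed, so nothing is read from 0 calls in lists this short. The median log2 difference of all transcripts there was 0.00. Of the further TALE genes and their regulators (Pbx2, Pknox1 and others), 9 of 13 listed symbols were tested as 10 transcripts, and 0 passed both limits in any treatment comparison. Their median log2 difference between PB and VEH was 0.14. Pknox1, a MEIS relative that also pairs with PBX proteins, was higher by 0.23 (SE 0.07, edgeR adjusted p = 0.0487), under the fold limit. Of the partners and corepressors of FOXP proteins, 11 of 12 symbols were tested, 0 passed in any comparison and the median was 0.18. Sox5, a factor of deep-layer cortical neurons, had the smallest p at 0.28 (SE 0.09, edgeR adjusted p = 0.0505). Of the genes reported as targets of FOXP2, 4 of 8 symbols were tested, 0 passed and the median was 0.16. Disc1, a scaffold protein of neuronal development, had the smallest p there at 0.44 (SE 0.14, edgeR adjusted p = 0.0584). Between PB and LEV the receptor genes Met and Vldlr, named after their values were seen, were higher in PB animals by 0.28 (SE 0.07, edgeR adjusted p = 0.0114) and 0.16 (SE 0.04, edgeR adjusted p = 0.0338), under the fold limit. Between LEV and VEH the medians of the 3 lists were 0.04, 0.05 and -0.03, and between PB and LEV 0.11, 0.07 and 0.22.

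Markers of the dissected tissue and of its neighbours were measured beside these genes. The hippocampal markers Prox1, of dentate granule cells, and Neurod6, of pyramidal neurons, were present in all animals. Spink8 of the same list was at 0 in 11 of 41 animals and was not tested. The summed list ran from 921 to 1130 CPM in VEH (median 977), from 886 to 975 CPM in PB (median 928) and from 865 to 1036 CPM in LEV animals (median 947). None of its 9 tested transcripts passed both limits between PB and VEH. Both entries of Fibcd1 fell after PB by less than the fold limit (log2 differences -0.21 and -0.22, SE 0.06, edgeR adjusted p = 0.0284 and 0.0222). They carry the same RefSeq accession and are not separate evidence. Both are counted in the 9 transcripts, in the summed list and in the relations with that list. Zbtb20 was higher in PB than in LEV animals (log2 difference 0.46, SE 0.12, edgeR adjusted p = 0.0176). Against VEH it differed by -0.04 (SE 0.12) after PB and by -0.50 after LEV (SE 0.12, edgeR adjusted p = 0.18). The summed thalamic list ran from 142 to 198 CPM in VEH (median 180), from 163 to 201 CPM in PB (median 190) and from 171 to 198 CPM in LEV animals (median 185). Of its 7 tested transcripts Tcf7l2 and Prkcd rose after PB, both by 0.35 (SE 0.11 and 0.10, edgeR adjusted p = 0.0446 and 0.0263), and the other 5 lay between -0.20 (Lhx9) and 0.09 (Ntng1), for a median of 0.00 over the list. Gbx2 was at 0 in 30 of 41 animals. The summed striatal list ran from 133 to 191 CPM in VEH (median 156), from 145 to 214 CPM in PB (median 177) and from 145 to 204 CPM in LEV animals (median 165), with 0 of 14 transcripts called and the dopamine receptors Drd1 and Drd2 detected in all animals. Thalamic and striatal levels were also added as covariates. The log2 difference between PB and VEH was then 0.53 (SE 0.18) for Foxp2 and 0.44 (SE 0.11) for Meis2. This describes the contrast that chose both genes and does not test the tissue's makeup. Across animals Foxp2 had an r of 0.234 with the striatal and -0.003 with the thalamic list, and Meis2 of 0.249 and -0.068. The thalamic value of Foxp2 combined opposite signs, -0.479 in the first form and 0.249 in the second. For Meis2 these were -0.215 and 0.048. With the striatal list r was 0.328 and 0.178 for Foxp2, whose rho was 0.031, and 0.252 and 0.261 for Meis2. The hippocampal list was not a covariate.

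Of the other lists, the ganglionic eminence lineage ran from 163 to 282 CPM in VEH (median 245), from 193 to 254 CPM in PB (median 219) and from 208 to 279 CPM in LEV animals (median 243), with 0 of 8 transcripts called in any treatment comparison and Gsx2 at 0 in 8 of 41 animals. Deep cortical layer markers, with 0 of 7 transcripts called, summed to medians of 1116 (VEH), 1132 (PB) and 1111 (LEV) CPM, within 900 to 1254 CPM over all animals. Choroid plexus markers, with 0 of 8 called, ranged from 9.75 to 7408 CPM between animals. Skeletal muscle markers were at 23.4 to 47.5 CPM in the VEH and LEV animals of the first code form and at 6.03 to 14.5 CPM in the other animals. All 3 tested muscle transcripts were lower after PB, among them Atp2a1 by 2.46 (SE 0.45, edgeR adjusted p = 0.00105). Astrocyte markers summed to medians of 3816, 3655 and 3683 CPM in the 3 groups, and the median log2 difference of their 13 transcripts between PB and VEH was -0.08. Gfap rose after PB by 0.32 (SE 0.06, edgeR adjusted p = 0.00241), whereas Aldoc and 1 transcript of Slc1a3 fell, both by 0.16 (SE 0.04 and 0.05, edgeR adjusted p = 0.0136 and 0.0286), less than the fold limit. Over the 56 relations between a member and a list across animals, none passed after adjustment. The closest was that of Foxp2 with the hippocampal list, with an r of -0.549 (permutation p = 0.00179, adjusted p = 0.0616) and a rho of -0.479 (permutation p = 0.00402, adjusted p = 0.225). It was -0.361 without VEH animal 13 and LEV animal 8, -0.447 in the first form and -0.606 in the second. The part of the tissue's makeup in the differences of Foxp2 and Meis2 was not tested.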

How the data were processed

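RNA sequencing libraries of 42 rat hippocampi, each from a separate pup, were analysed. Per the submitters' processing notes and the methods, the authors aligned the reads with STAR 2.7.3a to rn6 in Partek and quantified RefSeq transcripts with the E/M method of that software. The deposited values are these estimated counts before any normalization. Of all values 13.7% were not whole, and all values of the 7 members were. A second deposited table holds the authors' DESeq2 comparisons (p values and fold changes) and was not used. All per-sample columns were used.

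Estimated counts were rounded, and edgeR 4.0.16 was run in R 4.3.3 (TMM, filterByExpr by treatment, glmQLFit and glmQLFTest at default settings) in one model of treatment and form of sample code, without the VEH animal labelled as excluded. P values were adjusted by Benjamini-Hochberg over 13062 transcripts. Effective library sizes ran from 9588079 to 13786159. The dependence on the code form was tested with a treatment-by-form term. The script was tested on simulated data. Residual correlations used log2 CPM (prior count 2), with numpy 2.4.6, and permutation tests were two-sided. Relations with a marker list used the mean log2 CPM of its transcripts.

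All members were reported. Genes outside them were named where called from a pathway list (TALE relatives, FOXP partners, FOXP2 reported targets) or, failing that, with its smallest p in PB against VEH, and as the 5 transcripts most like Foxp2 and Meis2 and the 3 most like each other member, of which 1 is not reported here. Marker genes were named after their values were seen. Members and lists (pathway lists and markers of ganglionic eminence lineage, hippocampus, striatum, thalamus, deep cortical layers, choroid plexus, skeletal muscle and astrocytes) were chosen with earlier results of these data known. Alternatives were DESeq2 1.42.0 and its size factors, no filter or a mean of at least 50 counts, no form term, each form alone, treatment by form, the animal number as a block, the excluded animal kept, counts per symbol, thalamic and striatal covariates, and each animal left out. The labels place 1 animal in each library, so that p values measure the spread between animals, with any littermates across groups treated as unrelated.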

Additional observations from a re-analysis of the deposited data

Results flagged for a closer look

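Meis1 in VEH animal 5 lay at 1.84 CPM, far below the other 5 VEH animals of the first code form, of which the lowest had 3.10 CPM. It was the single flag among 42 sets of one gene, treatment and code form, where chance gives about 2.1. The count behind it was 25. The VEH animal labelled as excluded, which the methods leave out for its unusual coverage, entered no main comparison. It was above every analysed VEH animal for 3 of the 7 genes, a share not counted over all transcripts, so that nothing is read from it. Its Foxp1 level was 36.4 CPM against a highest of 34.4 CPM, its Foxp4 level 59.6 CPM against 47.9 CPM, and its Pbx3 level 18.96 CPM against 18.86 CPM.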

How the results depend on the processing

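Between PB and VEH, the contrast that chose the members, Meis2 no longer passed both limits in the first code form alone, and Foxp2 passed them in 13 of 41 fits with one animal left out and in 4 of 12 other settings (mean of at least 50 counts, treatment by form, counts per symbol, DESeq2). This describes the calls and supports neither. The number of transcripts called between LEV and VEH, 0 as reported, was 1 without a filter, with a mean of at least 50 counts and with covariates, 5 with the treatment-by-form term and with DESeq2, 170 in the first form alone and 6 in the second. Between PB and VEH it was 17 in the first form alone and 168 in the second, and between PB and LEV 24 in the first form alone and 34 with the excluded animal, which also left 1 transcript whose PB difference and 6 whose LEV difference depended on the form. The split of higher to lower between PB and VEH was 45 to 34 as reported, 45 to 57 without a filter, 57 to 28 with DESeq2, 5 to 12 in the first form alone and 28 to 27 with the block. Leaving out one animal gave 52 (PB animal 7) to 115 (PB animal 5) transcripts between PB and VEH, 0 to 4 (VEH animal 4) between LEV and VEH and 39 (PB animal 7) to 101 (PB animal 5) between PB and LEV, where leaving out LEV animal 2 gave 50.

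Of the members' 312 values under the other settings 20 changed sign. Between PB and VEH these were Foxp4 at -0.0791 in the second form and -0.0219 with the excluded animal, and Meis1 at 0.215 and Meis3 at 0.0651 in the first form. Between LEV and VEH they were Foxp1 at -0.1411 in the first form and -0.0082 with the excluded animal, Foxp4 at -0.0299 in the second form, Meis1 at 0.0165 in the first form, and Meis3 at 0.0392 in the first form, 0.0062 with the excluded animal, 0.0429 with covariates and 0.0024 with the block. Between PB and LEV they were Foxp2 at -0.1136 in the second form, Meis1 at -0.1008 in the second form, Meis3 at 0.0259 in the first form, and Pbx3 at -0.0011 without a filter, -0.0012 without the form term, -0.1368 in the first form, -0.0131 with the treatment-by-form term and -0.0043 with the block. With one animal left out, 26 of 861 values changed sign. Meis3 between PB and VEH stood at 0.009 without VEH animal 9, LEV against VEH ran from -0.0342 to 0.0316 for Meis3, and PB against LEV from -0.02 to 0.0883 for Meis1, from -0.0615 to 5e-04 for Meis3 and from -0.0267 to 0.0422 for Pbx3. The cause of these changes was not tested. Meis1 had too few counts for a value with the stricter filter.

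The animal numbers, which are not stated to mark litters, did not pair the animals. Deviations of same-numbered animals had r from -0.332 to 0.329 in 40 pairs (median 0), 10 of them over 0.1, and 3 of 41 animals correlated best with their own number. With the number as a replicate block, 55 transcripts were called between PB and VEH, 0 between LEV and VEH and 63 between PB and LEV. Low counts limit Foxp2 and Meis1, whose standard errors were the largest.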
